A study of Mus musculus with 8 samples.

Results

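The comparison set co-cultured RAW macrophages against the CT26 colon tumour cells that shared their medium. It asks which transcripts each partner held at the time when soluble molecules could pass between them, with attention to secreted factors and to the receptors that could receive them. Its members were all genes of the array with a probe set of 1 gene symbol, each represented by the probe set with the highest mean over the 8 arrays of the series. That gave 18193 genes, measured here on 4 of the 8 arrays. Of these genes, 13196 were bright enough in at least 1 group to be tested and 4997 were not.

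Both lines are established mouse lines. RAW264, called RAW below, is a macrophage line transformed by a leukaemia virus, and CT26 is a line from a chemically induced colon tumour, labelled as epithelial. In co-culture the CT26 cells grew in a well and the RAW cells on a porous insert hung above them, without contact. Each line was grown in co-culture and by itself, with 2 arrays for each of these 4 groups, and the labels name no added agent and no genetic change in any of them. The labels number 2 occasions on which the experiment was run, called the first and the second experiment here. Without a block, p-values measure the spread between these runs. A block for the experiment takes out the shift between the runs that all groups share. A block for each line takes out the shift within each line. Its p-values therefore do not measure how far a line difference varied between the runs. Trypsin was used to harvest CT26 cells, while lysis of RAW cells took place directly on the insert. Cell line, harvest and compartment therefore changed together, and their parts in a difference between the lines cannot be told apart.

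The values are log2 expression values on the scale of the deposited table, 1 value per array, with the first experiment before the second wherever a pair is given. A difference is RAW co-culture minus CT26 co-culture in log2 units, ± its standard error from a linear model of all 8 arrays fitted with limma, so that 1 unit is a change by a factor of 2 and a negative value is a gene higher in CT26. A gene was called where the p-value adjusted over all 13196 genes lay under 0.05. The arrays were brought to a common distribution by the authors and received a fixed amount of RNA, so a difference is one in the share of a transcript in the RNA and not in molecules per cell. A gene was taken as under the floor of a line where it lay below the 40th percentile of the array, 5.21 to 5.28 log2 units, on both co-culture arrays of that line. Its fold is then given as a lower bound against that floor.

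Macrophages carry myeloid identity through the transcription factor PU.1 and depend on colony-stimulating factor 1, which signals through the receptor tyrosine kinase encoded by Csf1r. They secrete chemokines that draw further leukocytes and display pattern recognition and scavenger receptors that bind microbes, lipids and debris. Tumour cells and the fibroblast-like cells around them are, in turn, common sources of colony-stimulating factors, of growth factors of the epidermal and transforming families and of the matrix on which all cells sit. A gap between a well and an insert lets such proteins diffuse, and the products of cell-bound receptors stay behind.

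The labelled cell types were set beside marker genes. These lists were chosen with earlier results of these data known, so their counts are a description and no independent check. All 23 tested macrophage markers were called higher in RAW, with a median difference of 6.53 log2 units. Cd68, a lysosomal glycoprotein of macrophages, read 13.39 and 13.75 in RAW against 5.24 and 5.27 in CT26. Ptprc, the pan-leukocyte phosphatase CD45, read 12.40 and 12.18 in RAW against 4.60 and 3.91 in CT26. In CT26 both genes lay under the floor, as did 7 further markers (Itgam, Cybb, Lcp1, Tyrobp, Coro1a, Fcgr1 and Aif1), although a second probe set of Fcgr1 read 6.48 and 6.49 in CT26, above the floor. The other 14 markers had at least 1 CT26 array above the floor, with Cd14 at 10.14 and 10.04, Laptm5 at 7.15 and 6.64, Spi1 at 5.87 and 5.99 and Csf1r at 5.95 and 5.91. Epithelial markers were split: of 15 tested, 4 (Jup, Krt18, Krt20 and Tjp1) were called higher in CT26, or 7 with the experiment as a block for each line. Pkp2, a desmosomal plaque protein, was called higher in RAW (3.87 ± 0.49) and 10 were not called. The Jup call was lost without RAW alone replicate 1 or 2, RAW co-culture replicate 1 or 2 or CT26 co-culture replicate 2 (adjusted p of 0.0535 to 0.171). Krt20, an intestinal keratin, read 4.68 and 4.84 in RAW against 11.46 and 11.49 in CT26. Tjp1, a tight junction scaffold, read 4.42 and 4.38 in RAW against 11.75 and 11.49 in CT26. Cdh1, the adhesion molecule that defines epithelium, lay under the floor on all 4 co-culture arrays (3.64 and 3.73 in RAW, 3.82 and 3.86 in CT26), and so did Cldn7, Krt7, Ocln, Dsp, Vil1, Muc1, Perp and Esrp1. Of 20 tested mesenchymal markers 16 were called higher in CT26 and 1, S100a4, in RAW, with a median of -3.75. S100a4 was bright in both lines and differed by 0.49 ± 0.11. The S100a4 call was lost without CT26 co-culture replicate 1 or 2 or RAW co-culture replicate 2 (adjusted p of 0.0501 to 0.0721). By these markers the CT26 arrays went against a purely epithelial label. By limma 0 of the 5 tested lymphoid and 0 of the 4 tested endothelial markers were called, with 1 lymphoid and 0 endothelial at an unadjusted p under 0.05. The lymphoid marker was called with a block for each line.

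The lines differed widely. In all 4587 genes were called, or 34.8%, with 2339 higher in RAW (17.7%) and 2248 higher in CT26 (17%), and 5665 genes had an unadjusted p under 0.05. Of all tested genes the median size of the difference was 0.35 log2 units and the median signed difference was -0.036. Differences over 4 log2 units were found for 235 genes higher in RAW and 235 higher in CT26, those over 6 units for 65 and 65, and those over 8 units for 17 and 8. The smallest called difference was 0.334. With the experiment as a block in the fit, shared by the lines, 6873 genes were called, 3452 higher in RAW and 3421 higher in CT26, and with a block for each line 7652, or 3833 and 3819. The partner line was under the floor for 266 of the genes called higher in RAW (11.4%) and for 360 of those called higher in CT26 (16%). Over all tested genes the differences of the first and the second experiment correlated at 0.970, a description across genes, which are no independent replicates.

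The 10 largest differences in favour of RAW are described first. Lyz1, which encodes lysozyme, read 15.28 and 15.30 in RAW against 4.83 and 4.32 in CT26. Lyz2 read 15.26 and 15.25 in RAW against 5.93 and 6.43 in CT26, but the lysozyme genes are near-identical copies whose probes may share transcripts. Lpl, lipoprotein lipase, read 14.11 and 13.87 in RAW against 4.68 and 4.78 in CT26. Cd36, a scavenger receptor for oxidised lipids and for thrombospondin, read 12.99 and 13.38 in RAW against 4.09 and 4.19 in CT26, a difference of 9.04 ± 0.16 (adjusted p = 2.44e-07). On each of these genes both RAW arrays lay far above both CT26 arrays. Ctss, cathepsin S of the endolysosome, read 13.35 and 13.35 in RAW against 4.73 and 4.14 in CT26, at least 269-fold higher in RAW. Srgn, the core protein of secretory granule proteoglycans, read 13.50 and 13.47 in RAW against 4.16 and 4.67 in CT26. Other probe sets of Lyz1 differed by 11.02 and 1.68. The others of the 10 largest were the actin-binding proteins Lcp1 (9.20 ± 0.17) and Coro1a (9.16 ± 0.27), the signalling adaptor Tyrobp (8.93 ± 0.24) and the receptor gene Csf1r (8.58 ± 0.17).

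The largest differences in favour of CT26 included genes of the cell surface and of secretion. Rpl39l, a ribosomal protein paralogue, read 4.91 and 4.82 in RAW against 13.82 and 13.58 in CT26. Tm4sf1, a tetraspan membrane protein, read 4.98 and 4.85 in RAW against 13.76 and 13.73 in CT26, at least 366-fold higher in CT26. Cd34, a sialomucin of progenitor and endothelial cells, read 4.21 and 4.07 in RAW against 12.81 and 13.02 in CT26, a difference of -8.77 ± 0.17 (adjusted p = 2.57e-07). All CT26 values of these genes were above 12 and all RAW values were under the floor. Axl, a receptor tyrosine kinase for Gas6 and protein S, read 4.50 and 4.66 in RAW against 12.71 and 13.43 in CT26, although another probe set of Axl, dim on all arrays, differed by only -0.08. Baiap2l1, an adaptor at actin-rich protrusions, differed by -8.45 ± 0.18, Esm1, a secreted proteoglycan, by -8.38 ± 0.24, Pcolce, an enhancer of procollagen cleavage, by -8.20 ± 0.26, Cpe, a carboxypeptidase of secretory granules, by -8.03 ± 0.23, F2r, the thrombin receptor, by -7.94 ± 0.18, and the neurofilament gene Nefm by -7.93 ± 0.16. A dim second probe set of Cpe differed by -0.21. The fold bound of Tm4sf1 is that of its brightest probe set, and its others differed by -4.86 and -3.27.

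Promoters are shown next, to set letters that a myeloid factor and a factor of growing adherent cells are known to bind beside genes from either side. The letters are those of the reference genome and not of these lines, and come from the RefSeq promoter table of build GRCm38.p6, which spans 250 bases before to 50 bases after a start site. PU.1 is encoded by Spi1, which read 11.31 and 12.26 in RAW against 5.87 and 5.99 in CT26. The letters searched for PU.1 were GAGGAAGT, and for TEAD factors, the partners of the co-activator YAP, GGAATG, on both strands and without removing overlaps between motifs. The Ctss promoter (chr3:95526536-95526835, plus strand, the strand of the gene) holds the PU.1 letters in reverse complement, shown in capitals.
Ctss: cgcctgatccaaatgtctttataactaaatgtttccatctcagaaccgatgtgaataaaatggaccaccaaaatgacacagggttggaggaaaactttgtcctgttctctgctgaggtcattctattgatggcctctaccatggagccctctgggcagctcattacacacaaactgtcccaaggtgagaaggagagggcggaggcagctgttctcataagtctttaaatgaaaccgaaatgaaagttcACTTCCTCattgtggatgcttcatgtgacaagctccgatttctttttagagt
The Axl promoter (chr7:25788684-25788983, minus strand, the strand of the gene) holds the TEAD letters, shown in capitals.
Axl: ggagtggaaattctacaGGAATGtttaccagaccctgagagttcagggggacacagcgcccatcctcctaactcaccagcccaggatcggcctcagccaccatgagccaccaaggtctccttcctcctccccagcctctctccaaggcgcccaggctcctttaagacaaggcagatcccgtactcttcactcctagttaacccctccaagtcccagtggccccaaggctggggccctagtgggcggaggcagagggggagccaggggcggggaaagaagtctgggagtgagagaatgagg

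Short windows around the same letters follow for further genes, read on the strand that spells the motif, which is in capitals. They were chosen after the differences were seen, as examples from genes with large differences. The PU.1 windows belong to Ctsc, the lysosomal protease cathepsin C, Rab32, a small GTPase, the tetraspanin Cd53, Cyth4, an exchange factor for ARF proteins, and the lectin-like receptor Cd72, all called higher in RAW.
Ctsc chr7:88277924-88277951, minus strand: gaggtggcctGAGGAAGTtagttagtga
Rab32 chr10:10558233-10558260, minus strand: agccagggaaGAGGAAGTgccgggacca
Cd53 chr3:106790126-106790153, plus strand: cgagaagagtGAGGAAGTgagactgagt
Cyth4 chr15:78597063-78597090, minus strand: gaccctgtggGAGGAAGTcagccctggc
Cd72 chr4:43454658-43454685, plus strand: agtcataaaaGAGGAAGTaggtctttgg
The TEAD windows belong to the protease inhibitor Timp1, the growth factor gene Pdgfc with a pair of matches, the collagen gene Col3a1, the matricellular gene Ccn1 and the co-activator gene Yap1, all called higher in CT26.
Timp1 chrX:20869916-20869934, plus strand: acaGGAATGcctttcttgt
Pdgfc chr3:81036269-81036294, plus strand: gatccccttaGGAATGaaagacaagt
Pdgfc chr3:81036444-81036465, minus strand: cggcgaGGAATGccgccaggcg
Col3a1 chr1:45311360-45311385, minus strand: gaaacacataGGAATGtgctttgtga
Ccn1 chr3:145650073-145650098, plus strand: aaacatctcaGGAATGttggttggcg
Yap1 chr9:8004722-8004747, minus strand: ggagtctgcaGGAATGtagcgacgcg
Differences for these genes were 8.37 ± 0.13 for Ctsc, 7.67 ± 0.23 for Rab32, 6.82 ± 0.11 for Cd53, 6.12 ± 0.47 for Cyth4, 5.83 ± 0.14 for Cd72 and, on the other side, -6.49 ± 0.13 for Timp1, -5.88 ± 0.18 for Pdgfc, -5.75 ± 0.33 for Col3a1, -4.81 ± 0.32 for Ccn1 and -5.01 ± 0.17 for Yap1.

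Over the 200 genes with the largest called difference in each direction, 152 on the RAW side matched 191 promoters and 146 on the CT26 side matched 187. The PU.1 letters were in 15 of the RAW promoters (7.85%) and 4 of the CT26 promoters (2.14%), beside 2.91% of the promoters of all tested genes and 3.2% of the whole table. The TEAD letters were in 21 (11%) and 35 (18.7%), beside 12.4% and 14.7%. For the letters of interferon regulatory factors, GAAANNGAA, the shares were 12.6% and 6.42%, beside 6.87% and 8.56%. RUNX letters, TGTGGTT, were in 6.81% and 4.81%, and the AP-1 letters TGANTCA in 7.85% and 10.7%, beside 3.75% and 5.52% of the promoters of all tested genes. Over the whole table RUNX letters were in 5.27% and AP-1 letters in 7.81%. The GC box GGGCGG was in 41.4% of RAW and 59.9% of CT26 promoters, and mean GC content was 55.3% and 59.4%, so the sides also differed in base composition. The share among all tested genes was 59.1% for the GC box, with a mean GC content of 60.2%. Over the whole table these were 35.7% and 53.8%. The TATA letters TATAAA were in 12% and 10.7%, beside 7.76% for all tested genes and 13.6% for the whole table. A match is a description of these letters and not a bound site, and no test was made.

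The exchange of soluble factors was followed in 26 lists of ligands, secreted proteins and receptors. They held 667 genes with a probe set, of which 462 were tested, 124 were called higher in RAW and 137 higher in CT26. That is 56.5% called, beside 34.8% of all tested genes. By direction, 17.7% of all tested genes were called higher in RAW and 17% higher in CT26. Every list count is to be read beside these shares. Another 205 were too dim to test, and a gene may stand in more than 1 list. With 1 array left out in turn, 39 of 496 recomputed counts of list and marker genes called in a direction moved by over 1.5 times, and the largest count among them was 9. Of 120 called genes named here that have more than 1 probe set, 62 have one that differs by less than 0.5 times the value given or the other way, and in 20 of them such a probe set has a mean of 6 log2 units or more over the 8 arrays.

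**Figure D1:**
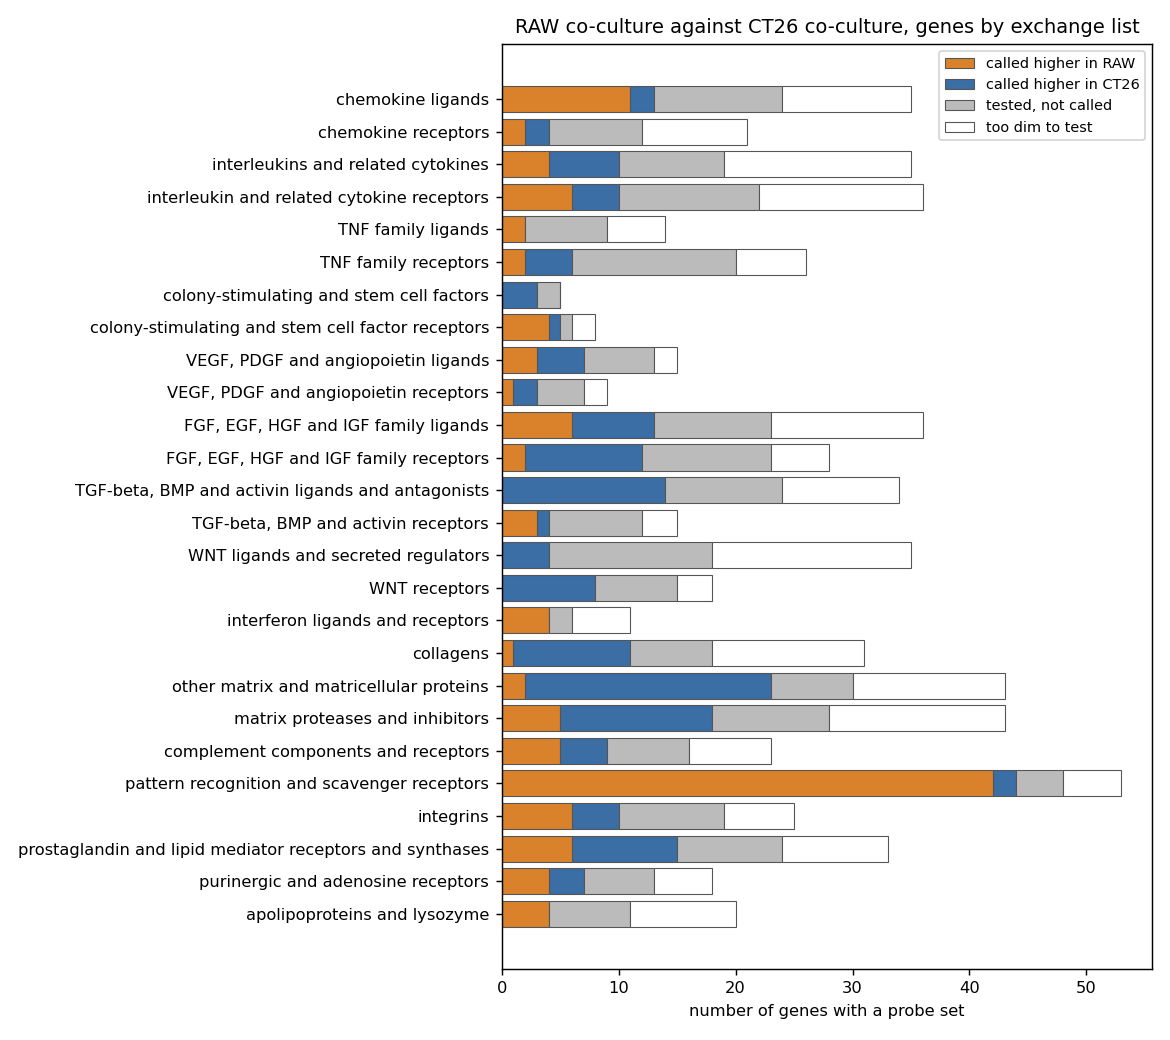
Number of genes in each exchange list that were called higher in RAW co-culture (orange), called higher in CT26 co-culture (blue), tested but not called (grey) or too dim to test (white), with the list on the vertical axis and the number of genes on the horizontal axis. Pattern recognition and scavenger receptors are the list with the most genes called higher in RAW (42), and matrix proteins other than collagens the one with the most called higher in CT26 (21).

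Of the chemokine ligands, the secreted attractants of leukocytes, those that were called were mostly higher in RAW. Of 24 tested, 11 were called higher in RAW, 2 higher in CT26 and 11 were not called, with a median difference of 0.24. Ccl9 read 14.03 and 13.93 in RAW against 6.57 and 6.48 in CT26. Ccl3, a ligand of CCR1, read 11.07 and 12.55 in RAW against 4.25 and 4.51 in CT26, at least 92.7-fold higher in RAW. Ccl2, the main monocyte attractant, read 11.92 and 13.87 in RAW against 6.38 and 5.77 in CT26, a difference of 6.81 ± 0.66 (adjusted p = 0.000236). For these genes the lowest RAW value lay above the highest CT26 value by over 5 log2 units. Cxcl14 read 11.02 and 11.18 in RAW against 4.39 and 4.79 in CT26. Cxcl2, an attractant of neutrophils, read 10.27 and 10.40 in RAW against 4.60 and 4.68 in CT26, with CT26 under the floor for both. The remaining chemokines called higher in RAW were Cxcl16 (3.47 ± 0.22), Ccl4 (3.29 ± 0.81), Pf4 (2.90 ± 0.37), Ccl7 (2.49 ± 0.37), Ccl6 (1.86 ± 0.25) and Cxcl11 (1.06 ± 0.13). Higher in CT26 were Ccl5, a T cell and monocyte attractant that read 6.75 and 6.51 in RAW against 7.99 and 7.75 in CT26, and Ccl25 (-0.55 ± 0.14). The Ccl4 call was lost without CT26 co-culture replicate 1 or 2 or RAW co-culture replicate 2 (adjusted p of 0.0682 to 0.0753). The Ccl25 call was lost without RAW co-culture replicate 1 or 2 or CT26 co-culture replicate 2 (adjusted p of 0.073 to 0.119). Cxcl1, a neutrophil attractant, read 7.80 and 7.48 in RAW against 8.95 and 8.75 in CT26 and was not called (adjusted p = 0.0554), although it was with a block for the experiment (adjusted p = 0.00826). Cxcl10 and Cxcl12 differed by 0.49 ± 0.32 and -0.18 ± 0.21 and were not called either. Cxcl10 was called with a block for each line (adjusted p = 0.0188). Its difference was -0.09 in the first experiment and 1.07 in the second.

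Interleukins and related cytokines were shared out between the lines. Of 19 tested, 4 were called higher in RAW and 6 higher in CT26, beside 17.7% and 17% of all genes. Il18, an inflammasome substrate, read 11.30 and 10.66 in RAW against 5.17 and 4.93 in CT26. Ebi3, a subunit of interleukin-27, read 9.76 and 10.19 in RAW against 4.47 and 4.98 in CT26, and both genes were under the floor in CT26. Il1rn, the antagonist that blocks the interleukin-1 receptor, read 8.98 and 9.60 in RAW against 5.99 and 6.39 in CT26. RAW was above CT26 on both arrays of these genes. The fourth, Il10, was called (0.73 ± 0.21) while under the floor in both lines, and no fold is given. The Il10 call was lost without CT26 co-culture replicate 1 or 2 or RAW co-culture replicate 1 or 2 (adjusted p of 0.0672 to 0.136). With the experiment as a block for each line 7 were called higher in RAW. On the CT26 side were Il7, a lymphoid survival factor at 4.95 and 4.76 in RAW against 7.48 and 7.58 in CT26, Lif, a cytokine of the interleukin-6 family at 5.15 and 5.34 in RAW against 6.98 and 7.74 in CT26, and Il34 with 3 genes at smaller differences. Il1b read 6.36 and 6.56 in RAW against 6.18 and 6.25 in CT26 and was not called. Osm, oncostatin M, read 7.50 and 8.89 in RAW against 6.96 and 6.87 in CT26 and was not called (adjusted p = 0.0672) but was with the shared experiment block (adjusted p = 0.0243). Il6 and Il33 were under the floor in both lines.

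Of 9 tested ligands of the tumour necrosis factor family, 2 were called higher in RAW and 7 were not called. By limma 0 were called higher in CT26, with 0 at an unadjusted p under 0.05 and 1 called with a block for each line. Tnf read 10.06 and 10.82 in RAW against 6.89 and 6.94 in CT26, a difference of 3.53 ± 0.24 (adjusted p = 3.89e-05). Ltb, which anchors lymphotoxin to the membrane, read 8.46 and 7.62 in RAW against 4.75 and 4.56 in CT26.

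Of the colony-stimulating and stem cell factors, those that were called, Csf1, Il34 and Kitl, lay on the opposite side. Of 5 tested, 3 were called higher in CT26 and 2, Csf2 and Csf3, were not called. Csf2 read 5.38 and 5.41 in RAW against 5.49 and 5.20 in CT26. Csf3 read 5.51 and 5.16 in RAW against 5.49 and 5.54 in CT26, so both genes were close to the floor. By limma 0 were higher in RAW, with 0 at an unadjusted p under 0.05. Csf1, the growth factor of macrophages, read 5.68 and 5.98 in RAW against 11.46 and 11.99 in CT26, a 59.6-fold difference in level (-5.90 ± 0.29, adjusted p = 8.28e-06). Both CT26 arrays were above 11 and both RAW arrays under 6. Other probe sets of Csf1 differed by -4.46 to -1.64. Il34, the second ligand of the same receptor, read 4.86 and 4.56 in RAW against 6.42 and 6.45 in CT26, close to background in RAW, and Kitl, stem cell factor, read 8.43 and 8.83 in RAW against 9.52 and 9.48 in CT26. The Kitl call was lost without CT26 co-culture replicate 1 or 2 or RAW co-culture replicate 1 (adjusted p of 0.0604 to 0.0789).

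Of 23 tested genes in the ligand list of the fibroblast, epidermal, hepatocyte and insulin-like families, 6 were called higher in RAW and 7 higher in CT26. The list is wider than these families, with Bdnf, Grn and Pros1 outside them. Its members Fgf11 and Fgf13 are not secreted ligands. The ligands of the epidermal growth factor receptor family that were higher in CT26 were Ereg at 4.73 and 4.46 in RAW against 11.31 and 11.04 in CT26, Hbegf at 4.95 and 6.10 in RAW against 11.89 and 11.91 in CT26 and Btc at 5.37 and 5.25 in RAW against 8.74 and 8.33 in CT26, together with Nrg1 (-1.81 ± 0.27). Fgf7, a keratinocyte growth factor that fibroblasts make, read 5.60 and 5.60 in RAW against 10.37 and 10.45 in CT26. Bdnf (-3.69 ± 0.20) and Mst1, macrophage-stimulating protein (-3.59 ± 0.21), were also higher in CT26. RAW held more Igf1, which read 10.27 and 10.80 in RAW against 6.23 and 5.96 in CT26, a difference of 4.44 ± 0.24 (adjusted p = 1.16e-05), and more Fgf11 (2.69 ± 0.34), Fgf13 (2.60 ± 0.10), Grn, the lysosomal and secreted protein progranulin (1.69 ± 0.16), and Pros1, protein S (0.70 ± 0.21). The Pros1 call was lost without CT26 alone replicate 1 or 2, CT26 co-culture replicate 1 or 2, RAW alone replicate 1 or 2 or RAW co-culture replicate 2 (adjusted p of 0.0582 to 0.193). Gas6 read 6.83 and 8.84 in RAW against 5.58 and 5.58 in CT26, with the experiments of RAW far apart, and was not called (adjusted p = 0.0531) but was with the shared experiment block (adjusted p = 0.0049). Hgf was too dim to test. Other probe sets of Fgf11 and Fgf13 differed by 1.07 and 0.13.

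Among vascular growth factors 3 of 13 tested were called higher in RAW and 4 higher in CT26, beside 17.7% and 17% of all genes. Vegfa read 7.95 and 8.32 in RAW against 10.19 and 9.81 in CT26. Pdgfc read 4.05 and 3.81 in RAW against 9.93 and 9.70 in CT26, and both genes were higher in CT26 as were Pdgfa (-2.60 ± 0.29) and Angptl6 (-2.10 ± 0.34). Angpt2 read 10.26 and 10.37 in RAW against 7.03 and 7.39 in CT26. Pdgfb read 7.05 and 9.33 in RAW against 5.13 and 5.45 in CT26, and both genes were higher in RAW as was the lymphatic factor Vegfc (1.52 ± 0.20). The Pdgfb call was lost without CT26 alone replicate 1 or 2, CT26 co-culture replicate 1 or 2 or RAW co-culture replicate 2 (adjusted p of 0.0573 to 0.145). A dim second probe set of Angpt2 differed by 0.09.

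Ligands and extracellular regulators of the transforming growth factor beta family were called higher in CT26 in 14 of 24 cases tested, beside 17% of all genes. By limma 0 were called higher in RAW, beside 17.7% of all genes, with 1 at an unadjusted p under 0.05 and 1 called with either experiment block. Their tested median was -1.05. Fst, follistatin, which traps activin, read 5.26 and 4.96 in RAW against 11.34 and 11.03 in CT26. Ltbp1, which holds latent TGF-beta in the matrix, read 4.80 and 4.66 in RAW against 10.36 and 10.62 in CT26. Bmp2 read 4.41 and 4.11 in RAW against 9.90 and 9.41 in CT26. Grem1, an antagonist of BMPs, differed by -5.12 ± 0.31. In each of them the CT26 arrays stood above the RAW arrays by over 3 log2 units. Inhba, the activin A subunit, differed by -2.98 ± 0.34 and Tgfb3 by -2.18 ± 0.26. The gene that the blocks called higher in RAW was Tgfb1, which read 9.71 and 11.32 in RAW against 7.64 and 8.93 in CT26, with the experiments 1 to 2 units apart within each line. It was not called (adjusted p = 0.0602) but was with the experiment block (adjusted p = 1.64e-05). Of 18 tested WNT ligands and secreted regulators, 4 were called higher in CT26, near the 17% of all genes, with Dkk2, a WNT antagonist, at 4.35 and 4.72 in RAW against 8.68 and 9.15 in CT26 and Wnt10a at 5.50 and 5.68 in RAW against 9.34 and 10.23 in CT26. By limma 0 were called higher in RAW, with 0 at an unadjusted p under 0.05 and 1 called with a block for each line.

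Matrix genes were mostly higher in CT26. Of 18 tested collagen genes 10 were called higher in CT26 and 1 in RAW, and of 30 other matrix and matricellular genes 21 and 2. Col1a2, a chain of fibrillar collagen I, read 6.43 and 6.18 in RAW against 13.56 and 13.70 in CT26. Col4a1, a chain of basement membrane collagen IV, read 4.86 and 5.31 in RAW against 10.95 and 11.76 in CT26. Fn1, fibronectin, read 6.87 and 6.92 in RAW against 12.87 and 12.87 in CT26, a difference of -5.97 ± 0.10 (adjusted p = 2.44e-07). Lamb1, a laminin chain, read 4.61 and 4.20 in RAW against 11.41 and 10.91 in CT26. Sparc, a collagen-binding glycoprotein, read 6.09 and 6.01 in RAW against 12.30 and 12.90 in CT26, while its other probe sets differed by -0.13 and -6.93. In all of these the CT26 arrays were above the RAW arrays without overlap. The matricellular genes Thbs1 (-4.82 ± 0.21), Ccn1 and Ccn2 (-5.71 ± 0.35) were higher in CT26 too. The exceptions were Nid2, a basement membrane linker at 7.50 and 7.21 in RAW against 4.26 and 4.17 in CT26, Ecm1 (1.00 ± 0.26) and Col4a5 (0.60 ± 0.15), which were higher in RAW. The Ecm1 call was lost without CT26 co-culture replicate 1 or 2 or RAW co-culture replicate 2 (adjusted p of 0.0811 to 0.117). The Col4a5 call was lost without RAW co-culture replicate 1 or CT26 co-culture replicate 2 (adjusted p of 0.106 to 0.121).

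Proteases and their inhibitors were called in both directions. Of 28 tested, 5 were called higher in RAW and 13 in CT26, beside 17.7% and 17% of all genes. Proteases were found on both sides. The inhibitors Timp1, at 7.03 and 7.23 in RAW against 13.65 and 13.60 in CT26, and Timp2, at 7.13 and 8.02 in RAW against 12.85 and 13.20 in CT26, were higher in CT26, with Serpinh1, a collagen chaperone of the serpin family (-6.77 ± 0.22), and Mmp14, a membrane-bound matrix metalloprotease at 5.55 and 5.41 in RAW against 10.40 and 10.79 in CT26. Mmp13 (-2.59 ± 0.21), Mmp11 (-3.45 ± 0.34) and Adamts1 (-3.83 ± 0.19) were called in the same direction. Adam8, Adam17 and Adam10, membrane sheddases, were higher in RAW. Adam8 read 12.72 and 13.77 in RAW against 6.01 and 5.56 in CT26. Adam17, which releases tumour necrosis factor, read 11.21 and 11.57 in RAW against 8.90 and 8.94 in CT26, and Adam10 differed by 2.33 ± 0.14. Plau, urokinase, was higher in RAW (2.70 ± 0.52), whereas its receptor gene Plaur was not called (-0.28 ± 0.19, adjusted p = 0.316) but was with a block for each line (adjusted p = 0.0375). Mmp9, the gelatinase often linked with macrophages, read 5.83 and 5.84 in RAW against 5.74 and 5.60 in CT26 and was not called.

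Complement genes completed the ligand side, with 5 of 16 tested called higher in RAW and 4 in CT26. Cfp, properdin, read 12.37 and 12.53 in RAW against 5.96 and 5.74 in CT26, but another probe set of it differed by only 0.86. Masp1, a protease of the lectin pathway, differed by -2.40 ± 0.23 and C1s1, a protease of the first complement component, by -1.04 ± 0.15, both higher in CT26. Of 11 tested apolipoprotein and lysozyme genes 4 were called higher in RAW, and Apoe, an apolipoprotein that macrophages secrete, was not called (-0.14 ± 0.13). Apoe read 5.06 and 5.20 in RAW against 5.17 and 5.36 in CT26, at or near the floor in both lines.

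**Figure D2:**
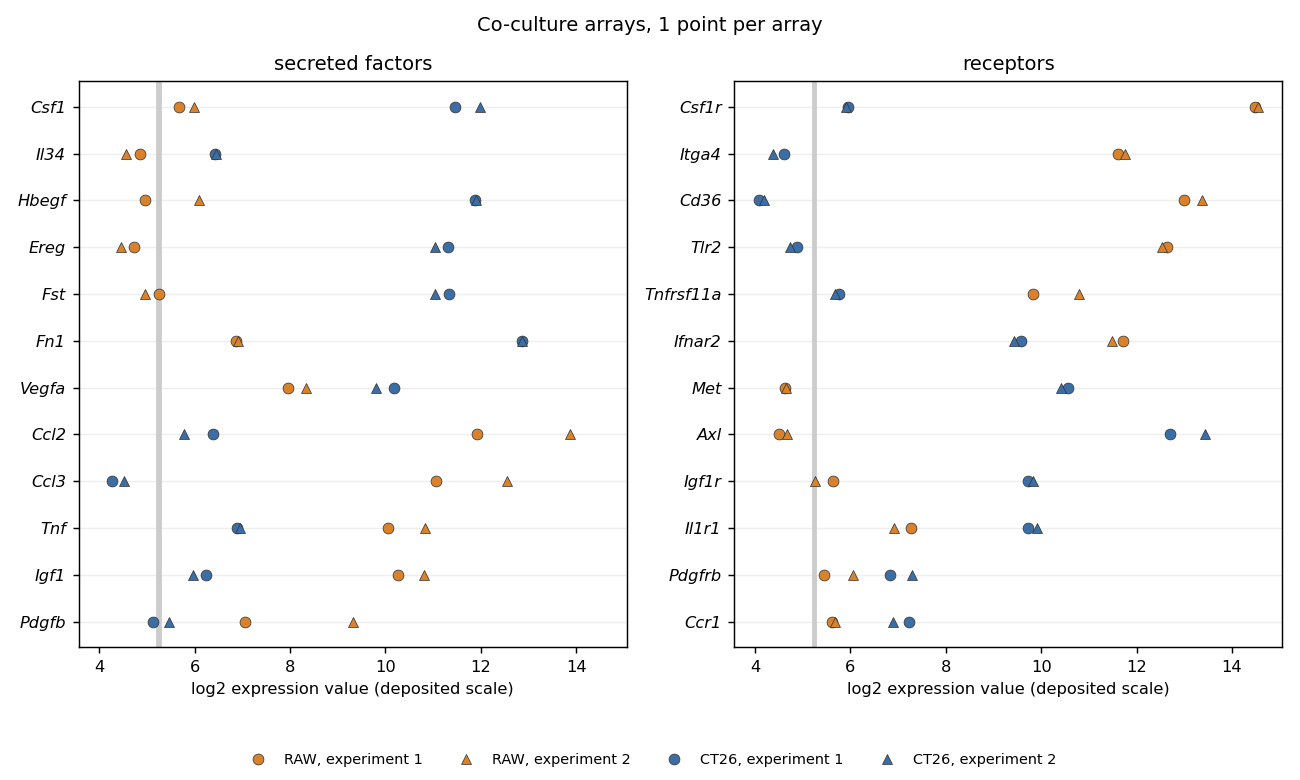
Deposited log2 expression value (horizontal axis) of 12 secreted factors and 12 receptors on the 4 co-culture arrays, with orange for RAW and blue for CT26, circles for the first experiment and triangles for the second. The grey band is the range of the array floor, 5.21 to 5.28. Csf1 sits between 11 and 13 in CT26, and its receptor gene Csf1r between 14 and 15 in RAW.

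Receptors were read in the same way, and the largest block of them was myeloid. Of 48 tested pattern recognition and scavenger receptor genes, 42 were called higher in RAW, 2 higher in CT26 and 4 were not called, with a median of 3.07. Tlr2, a sensor of bacterial lipoproteins, read 12.63 and 12.52 in RAW against 4.89 and 4.74 in CT26, at least 158-fold higher in RAW. Msr1, a scavenger of modified lipoproteins, read 12.78 and 12.82 in RAW against 6.34 and 6.20 in CT26. Trem2, a lipid receptor, read 11.76 and 11.80 in RAW against 6.78 and 6.39 in CT26, but its other probe set differed by only -0.02. The lectin gene Clec4d read 13.86 and 13.74 in RAW against 5.70 and 5.22 in CT26. None of the CT26 values of these genes passed 7. Cd14, the co-receptor for lipopolysaccharide, read 14.58 and 14.75 in RAW against 10.14 and 10.04 in CT26, so its transcript was above the floor in CT26 as well. Tlr4 read 10.68 and 10.39 in RAW against 7.76 and 7.45 in CT26 and was likewise above the floor in both lines. Cd44, the hyaluronan receptor, was bright in both lines and not called (0.23 ± 0.11, adjusted p = 0.145), but was, higher in RAW, with a block for each line (adjusted p = 0.0469). Among the pattern recognition and scavenger receptors the exceptions were Vldlr, a lipoprotein and reelin receptor at 4.26 and 4.46 in RAW against 11.23 and 10.83 in CT26, and Mrc1 (-0.96 ± 0.24). The Mrc1 call was lost without CT26 co-culture replicate 1 or 2 or RAW co-culture replicate 1 (adjusted p of 0.0504 to 0.0898). The choice of list members with a myeloid role fixes much of this direction.

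Receptors for colony-stimulating factors were on the RAW side, at 4 of 6 tested against 1 in CT26. Csf1r read 14.48 and 14.54 in RAW against 5.95 and 5.91 in CT26, a 382-fold difference (8.58 ± 0.17, adjusted p = 2.57e-07). Both RAW arrays were above 14 and both CT26 arrays under 6. Other probe sets of Csf1r, about as bright, differed by 6.78 and 5.40. Csf2ra, the binding chain for granulocyte-macrophage colony-stimulating factor, differed by 6.14 ± 0.43 and with another probe set by 0.80, and the shared chains Csf2rb and Csf2rb2 by 3.88 ± 0.30 and 2.02 ± 0.37. Epor was higher in CT26 (-0.37 ± 0.11). Its call was lost when any 1 of the 8 arrays was left out (adjusted p of 0.053 to 0.165).

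Of 22 tested interleukin and related receptors 6 were called higher in RAW and 4 in CT26, beside 17.7% and 17% of all genes. With either experiment block 8 were called higher in CT26. Il13ra1 (3.67 ± 0.19), Il17ra (2.67 ± 0.34), Il10rb (2.57 ± 0.13) and the interleukin-6 binding chain Il6ra (1.62 ± 0.34) were higher in RAW. Another probe set of Il6ra differed by 0.44. The Il6ra call was lost without CT26 co-culture replicate 1 or RAW co-culture replicate 2 (adjusted p of 0.0527 to 0.0577). Il1r1, the signalling receptor for interleukin-1, read 7.28 and 6.92 in RAW against 9.73 and 9.91 in CT26 and was higher in CT26, though a dim probe set of it differed by 0.03. Il18rap, an accessory chain of the interleukin-18 receptor, was called the same way (-1.38 ± 0.20). The shared signal chain Il6st was not called (-0.06 ± 0.17), and Lifr and Osmr were under the floor in both lines. Il10ra read 5.97 and 6.65 in RAW against 5.10 and 5.46 in CT26 and was not called (adjusted p = 0.0553) but was with the shared experiment block (adjusted p = 0.00322).

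Chemokine receptors were few. Of 12 tested, 2 were called each way, near the 17.7% and 17% of all genes. Higher in RAW (4 genes with either experiment block) were the fractalkine receptor gene Cx3cr1 at 8.74 and 8.42 in RAW against 6.33 and 5.95 in CT26, and Cxcr3, the receptor of Cxcl10 and Cxcl11 (0.55 ± 0.15). The Cxcr3 call was lost without CT26 alone replicate 1 or 2, CT26 co-culture replicate 1 or 2 or RAW co-culture replicate 1 or 2 (adjusted p of 0.0519 to 0.155). Called higher in CT26 were 2, the decoy receptor gene Ackr3 at 4.07 and 3.93 in RAW against 7.33 and 7.11 in CT26 and Ccr1 at 5.61 and 5.68 in RAW against 7.22 and 6.90 in CT26. The CT26 values of Ccr1 were 1 to 2 units above the floor, and a dim second probe set of it differed by -0.28. Ccr2, the receptor of Ccl2, differed by 0.32 ± 0.11 and was not called (adjusted p = 0.0646) but was with the shared experiment block (adjusted p = 0.02). Other probe sets of Ccr2, dimmer than the one used, differed by 1.16, 1.66 and 0.37. Cxcr4 was under the floor in both lines.

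Tumour necrosis factor receptors were mostly not called (14 of 20 tested). Called were 2 higher in RAW and 4 in CT26, beside 17.7% and 17% of all genes. In CT26 the count was 7 with the shared and 8 with the separate experiment blocks. Tnfrsf11a, the receptor RANK of osteoclast precursors, read 9.82 and 10.78 in RAW against 5.76 and 5.68 in CT26, and Cd40, which receives a signal from T cells, differed by 0.79 ± 0.18. The Cd40 call was lost without RAW co-culture replicate 1 or CT26 co-culture replicate 2 (adjusted p of 0.0623 to 0.0798). Tnfrsf12a, the receptor of TWEAK, read 10.01 and 9.55 in RAW against 13.43 and 13.29 in CT26 and was higher in CT26, as was Tnfrsf9 (-1.90 ± 0.18). The receptors of Tnf itself, Tnfrsf1a and Tnfrsf1b, differed by -0.07 ± 0.25 and -0.27 ± 0.39 and were not called, but Tnfrsf1b was with a block for each line (adjusted p = 0.0417).

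Of 23 tested genes in the receptor list of the fibroblast, epidermal, hepatocyte and insulin-like families, 10 were called higher in CT26, 2 in RAW and 11 were not called. This list too is wider than these families, with Ddr2, Tyro3 and Mertk outside them. Met, the receptor of hepatocyte growth factor, read 4.62 and 4.65 in RAW against 10.56 and 10.42 in CT26. Igf1r read 5.64 and 5.25 in RAW against 9.73 and 9.82 in CT26. Ddr2, a collagen receptor, read 5.57 and 5.95 in RAW against 10.59 and 10.54 in CT26. For these genes all CT26 values lay above 9 and all RAW values under 6. Fgfr1 (-2.76 ± 0.36), Erbb2 (-2.08 ± 0.18), Tyro3 (-1.49 ± 0.22) and Mertk (-0.88 ± 0.23) were called the same way. The Mertk call was lost without RAW co-culture replicate 1 or 2 or CT26 co-culture replicate 2 (adjusted p of 0.0686 to 0.118). Higher in RAW were Igf2r (1.67 ± 0.20) and Erbb3, a partner of Erbb2 in neuregulin signalling. Erbb3 read 8.51 and 8.45 in RAW against 5.90 and 5.06 in CT26, while a dim probe set of it differed by 0.07. Egfr differed by 0.07 ± 0.11 and was not called. Of 7 vascular receptors tested, 1 was called higher in RAW and 2 in CT26, beside 17.7% and 17% of all genes. Nrp1, a co-receptor of semaphorins and VEGF, read 7.14 and 7.30 in RAW against 9.35 and 9.37 in CT26. Pdgfrb read 5.44 and 6.05 in RAW against 6.84 and 7.30 in CT26. Both genes were higher in CT26, and Nrp2 was higher in RAW (1.30 ± 0.16). Pdgfra was not called (adjusted p = 0.0803) but was with the shared experiment block (adjusted p = 0.0448), and Kdr and Flt1 were not called.

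Of 12 tested receptors of the transforming growth factor beta family 3 were called higher in RAW and 1 in CT26, beside 17.7% and 17% of all genes. The counts were 5 and 4 with the shared experiment block and 5 and 5 with a block for each line. Tgfbr3, betaglycan, which presents TGF-beta ligands, read 5.15 and 4.90 in RAW against 10.52 and 10.54 in CT26 and was higher in CT26, though another probe set differed by -1.33. Tgfbr2, the ligand-binding kinase, read 11.65 and 12.13 in RAW against 10.52 and 10.43 in CT26 and was higher in RAW together with Acvrl1 (1.57 ± 0.23) and Amhr2 (3.78 ± 0.16), and Tgfbr1 was not called (adjusted p = 0.134) but was, higher in CT26, with a block for each line (adjusted p = 0.0315). Other probe sets of Tgfbr2 differed by 1.57 and -0.09, the last of them dim on all arrays. Of 15 tested WNT receptors 8 were called higher in CT26, with Fzd6 at 5.01 and 4.57 in RAW against 9.60 and 9.71 in CT26 and Fzd2 at 5.63 and 5.47 in RAW against 8.46 and 9.43 in CT26. The other probe sets of Fzd6 differed by -2.70 and 0.21. By limma 0 were called higher in RAW, with 0 at an unadjusted p under 0.05 and 1 called with a block for each line. All 4 interferon receptor chains tested were higher in RAW: Ifnar2 read 11.72 and 11.48 in RAW against 9.58 and 9.42 in CT26, Ifnar1 differed by 1.22 ± 0.16, Ifngr1 by 0.66 ± 0.18 and Ifngr2 by 2.12 ± 0.15. Another probe set of Ifngr2 differed by 0.87. The Ifngr1 call was lost without CT26 alone replicate 1 or 2, CT26 co-culture replicate 1 or 2 or RAW co-culture replicate 1 (adjusted p of 0.0523 to 0.155). The ligand genes Ifnb1 and Ifna1 were not called (0.02 ± 0.15 and 0.14 ± 0.14). Ifnb1 read 5.26 and 5.21 in RAW against 5.11 and 5.33 in CT26, at or near the floor in both lines.

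Integrins divided by subunit, with 6 of 19 tested called higher in RAW and 4 in CT26, beside 17.7% and 17% of all genes. With a block for each line 7 were called higher in CT26. Itga4 read 11.60 and 11.75 in RAW against 4.60 and 4.38 in CT26. Itgb2, the chain shared by leukocyte integrins, read 12.16 and 12.62 in RAW against 6.94 and 6.79 in CT26, and Itgal and Itgam were higher in RAW too (3.17 ± 0.15 and 5.17 ± 0.13). Another probe set of Itgal differed by 1.55. Itga6 and Itga3, which pair with Itgb1 as laminin receptors, were higher in CT26 (-3.54 ± 0.11 and -1.30 ± 0.19), and Itgb1 itself differed by -1.75 ± 0.11. The receptor genes of complement fragments, C3ar1 at 11.36 and 11.87 in RAW against 5.98 and 5.92 in CT26 and C5ar1 at 10.50 and 10.99 in RAW against 5.58 and 5.48 in CT26, were higher in RAW. Of 24 tested genes of prostaglandins and other lipid mediators, 6 were called higher in RAW, 9 higher in CT26 and 9 were not called. Among those higher in RAW were the leukotriene genes Alox5ap (6.50 ± 0.16), Cysltr1 (4.56 ± 0.29) and Ltc4s (1.53 ± 0.14). The prostaglandin synthesis genes Ptges (-3.47 ± 0.21), Ptgs2 (-2.00 ± 0.51) and Ptgis (-2.37 ± 0.16) were higher in CT26, whereas the prostaglandin receptor gene Ptger4 was higher in RAW (3.73 ± 0.29). The Ptgs2 call was lost without CT26 co-culture replicate 1 or 2 or RAW co-culture replicate 1 (adjusted p of 0.0738 to 0.0898). Of 13 tested purinergic receptor genes 4 were called higher in RAW and 3 in CT26, beside 17.7% and 17% of all genes. P2ry6, a receptor for extracellular uridine nucleotides, read 10.50 and 10.77 in RAW against 5.02 and 5.43 in CT26. P2rx7, an ATP-gated channel of macrophages, differed by 1.43 ± 0.22 and its other probe sets by 0.66 and 2.39, and on the CT26 side P2rx3 differed by -1.68 ± 0.28 and P2ry2 by -1.08 ± 0.13. Vdr, the vitamin D receptor, read 6.04 and 5.84 in RAW against 6.47 and 6.35 in CT26 and was called higher in CT26 (-0.47 ± 0.13, adjusted p = 0.0293). The Vdr call was lost without CT26 alone replicate 1 or 2, CT26 co-culture replicate 1 or 2 or RAW co-culture replicate 2 (adjusted p of 0.0578 to 0.141).

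Ligands were then set beside their receptors in 119 known pairs. Both members were called in 21 pairs, of which 15 had the ligand higher in one line and the receptor in the other, 4 had both higher in CT26 and 2 had both higher in RAW. In 49 pairs a member was not called, in 33 one was too dim to test, and 16 had a member not analysed here. Taken singly, 34.8% of all tested genes and 56.5% of the tested genes of the exchange lists were called. No share was computed for pairs drawn from all genes, so the pair counts are a description. Several pairs share a member, such as Csf1r, Pros1 or Ccr1, and are not independent. With a block for each line 23 pairs had members called on opposite sides, and with a test against a difference of 1 log2 unit 6 did. In 6 pairs the ligand was higher in CT26 and the receptor in RAW. They were Csf1 and Il34 with Csf1r, Thbs1 with Cd36, Fn1 with Itga4, Tgfb3 with Tgfbr2 and Nrg1 with Erbb3. The difference of Csf1 was -5.90 and that of Csf1r 8.58, that of Thbs1 -4.82 and of Cd36 9.04, and that of Fn1 -5.97 and of Itga4 7.19.

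In 9 pairs the ligand was higher in RAW and the receptor in CT26. Igf1 stood at 4.44 and Igf1r at -4.33, Il1rn at 3.10 and Il1r1 at -2.72, and Pdgfb at 2.90 and Pdgfrb at -1.32. Pros1 stood at 0.70 beside its receptors Tyro3 and Mertk (-1.49 and -0.88), and Ccl3, Ccl6, Ccl7 and Ccl9 shared the receptor gene Ccr1. These 4 chemokine pairs therefore rest on 1 receptor probe set, whose level in CT26 was low. With both members higher in CT26 were Sema3a and Vegfa with Nrp1, Ccl5 with Ccr1 and Col1a1 with Ddr2. With both higher in RAW were Il10 with Il10rb and Vegfc with Nrp2. Il10 was under the floor in both co-cultured lines, however, and its call was lost without any 1 of the 4 co-culture arrays. The pair of Gas6 and Axl was not among them because Gas6 was not called. A transcript difference in a pair says nothing of how much protein reached the other line, and levels of different probe sets were not compared.

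**Figure D3:**
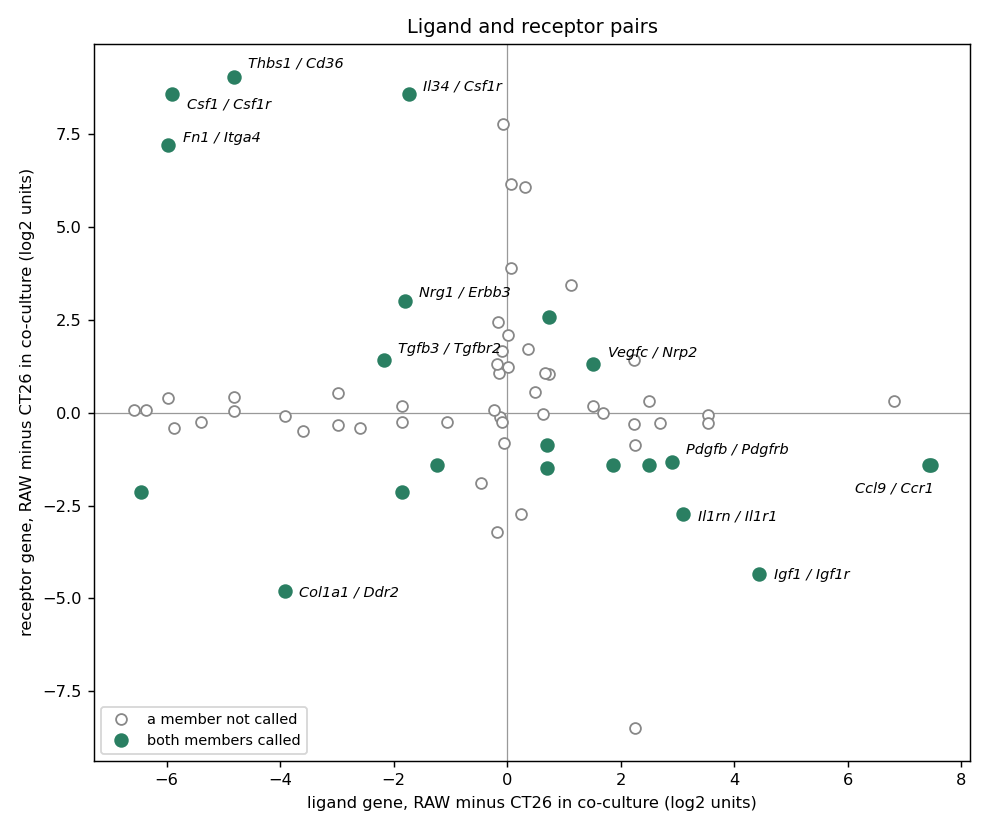
Difference of the receptor gene (vertical axis) against that of the ligand gene (horizontal axis), both RAW co-culture minus CT26 co-culture in log2 units, for the pairs with both members tested. Filled points are pairs with both members called, and open points have a member that was not called. The Csf1 and Csf1r pair lies at the upper left (-5.90 and 8.58), and the Igf1 and Igf1r pair at the lower right (4.44 and -4.33).

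The line difference in co-culture was set beside the same difference between the lines grown alone, which rests on the other 4 arrays. In those, 4563 genes were called (34.6%), or 6978 with the shared experiment block and 7735 with a block for each line. Of the 2339 genes called higher in RAW within co-culture, 2324 had the same sign alone, and of the 2248 called higher in CT26, 2240 did. Calls were shared for 4003 genes, while 584 were called in co-culture but not alone and 560 alone but not in co-culture. Across genes the differences of both settings correlated at 0.981, a description over genes measured with the same probe sets. The change of the difference itself was tested as an interaction, and 1 gene of 13196 was called (0.00758%), with 328 genes at an unadjusted p under 0.05. With the experiment as a block shared by the lines 11 genes were called, and with a block for each line 98.

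Ifi44l, an interferon-induced gene, was the gene called. It read 8.84 and 9.03 in RAW against 4.54 and 4.67 in CT26, a difference of 4.32 ± 0.15, while alone the lines differed by 0.22, so the change was 4.10 (adjusted p = 0.00446). Alone, both lines had means under the floor (4.89 in RAW and 4.67 in CT26). The call was lost without either first-experiment array of CT26, alone (adjusted p = 0.0597) or in co-culture (adjusted p = 0.0566). Only 3 genes were called in opposite directions in the 2 settings. Rtp4, an interferon-induced chaperone, read 12.32 and 12.58 in RAW against 10.97 and 9.58 in CT26 in co-culture, a difference of 2.17 ± 0.48 against -1.68 alone. Oasl1, of the oligoadenylate synthetase family, had 0.97 ± 0.21 against -0.97, and Fbxw17, an F-box protein gene, 0.54 ± 0.11 against -0.41. The Rtp4 call was lost without RAW co-culture replicate 2 (adjusted p = 0.0601). The Oasl1 call was lost without CT26 co-culture replicate 2 or RAW co-culture replicate 2 (adjusted p of 0.05 to 0.0609). The Fbxw17 call was lost without CT26 co-culture replicate 2 or RAW co-culture replicate 2 (adjusted p of 0.054 to 0.0697). The interaction of the 3 genes was not called (adjusted p = 0.454, 0.362 and 0.426), but it was with a block for each line (adjusted p = 0.000529, 0.00921 and 0.0198).

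**Figure D4:**
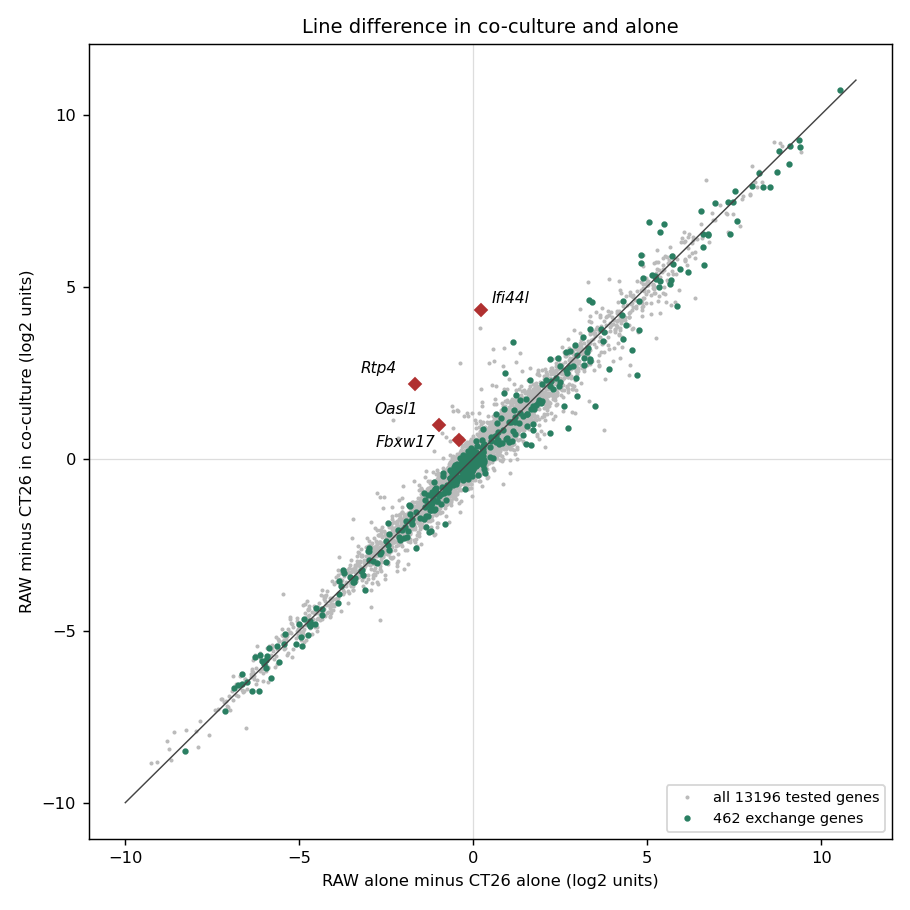
Difference between the lines in co-culture (vertical axis) against the difference between the lines grown alone (horizontal axis), RAW minus CT26 in log2 units, for the 13196 tested genes (grey) and the 462 tested exchange genes (green). The line marks equal differences and red diamonds mark 4 named genes. Ifi44l lies above the line at 0.22 and 4.32, and Rtp4, Oasl1 and Fbxw17 lie at the upper left, positive in co-culture and negative alone.

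Among the 462 exchange genes 0 were called for the interaction by limma, with 32 at an unadjusted p under 0.05, and 0 were called in opposite directions. With the shared experiment block 2 were called, Fgf13 (adjusted p = 0.0373) and Vegfc (0.0438), and with a block for each line 11. The 8 with the largest interaction statistic were Fgf13, Vegfc, Cfp, Itgal, Ltb, Ltc4s, Fcgr1 and Il10. Fgf13 differed by 2.60 ± 0.10 in co-culture and by 3.91 alone (interaction adjusted p = 0.136), and Vegfc by 1.52 ± 0.20 and 3.51 (adjusted p = 0.318). A dim second probe set of Fgf13 differed by only 0.13 in co-culture. Ltb differed by 3.39 ± 0.26 in co-culture and 1.15 alone, Fcgr1 by 6.89 ± 0.24 and 5.04, and Cfp by 6.60 ± 0.13 and 5.38. In these 3 genes the gap was wider in co-culture, and in Fgf13, Vegfc, Itgal (3.17 ± 0.15 and 4.58), Ltc4s (1.53 ± 0.14 and 2.62) and Il10 it was narrower, none past the threshold without a block. The block for each line called 7 of the 8 (adjusted p of 0.00634 to 0.024), all but Fcgr1. For the pair of colony-stimulating factor 1 and its receptor, Csf1 differed by -5.90 in co-culture and -5.59 alone, and Csf1r by 8.58 and 9.08, with no call for the interaction of either gene.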

How the data were processed

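RNA from 4 groups of 2 cultures was measured on 8 Affymetrix arrays. The log2 values were made by the authors with RMA in the R package affy, per the submitters' processing notes, with no version stated. RMA quantile-normalizes arrays together, which removes any overall difference in RNA output between the lines. Of 45101 probe sets 64 were array controls, 34945 had 1 gene symbol, 932 several and 9160 were not listed, with names from the platform annotation and 34741 matched to RefSeq by Entrez identifier.

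The brightest probe set per gene was kept, and genes above the array's 40th percentile on both arrays of a group were tested with limma 3.58.1 in R 4.3.3. The fit had 4 group means, all 8 arrays and no block, with Benjamini-Hochberg adjustment. The fit was also tried on simulated data with independent noise on each array. Those data lacked the deviations shared by experiment, so no conclusion is drawn from them. The number of arrays limits precision, and the median standard error of a difference was 0.165. The experiment number pairs the arrays, since every pair of groups showed shared deviations from the group mean by experiment (correlation 0.484 to 0.765). Alternatives were experiment blocks, co-culture arrays only, other filters, averaged probe sets, median centring, cyclic loess, a variance trend, a test against 1 log2 unit and each array left out. Named were the 10 largest called differences each way, the 2 largest called each way in each list, pairs called on opposite sides, the 8 exchange genes with the largest interaction statistic, the markers and a set list of well-known factors. Other genes were chosen after their values were seen. Members and lists were chosen with earlier results of these data known.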

Additional observations from a re-analysis of the deposited data

Results flagged for a closer look

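For 6 genes the difference between the lines changed between culture alone and co-culture in a way worth a closer look. The change is the RAW minus CT26 difference in co-culture minus the same difference alone, in log2 units. For Ifi44l it was 4.10, past the threshold of the interaction test by limma (adjusted p = 0.00446). For Rtp4, Oasl1 and Fbxw17 it was 3.85, 1.94 and 0.95. In each of the 3 genes RAW was above CT26 in both experiments of co-culture and below CT26 in both experiments alone. Their interaction was not called without a block and was with a block for each line. Egfr moved in the same way by 0.29 and Tgfbr1 in the opposite way by -0.61, with an interaction adjusted p of 1 for both in limma, so that their differences between the settings were not called.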

How the results depend on the processing

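With the experiment as a replicate block for each line, calls rose from 4587 to 7652 (3833 higher in RAW and 3819 in CT26), calls between the lines alone to 7735, interaction calls from 1 to 98 and opposite pairs from 15 to 23. The shared replicate block gave 3421 calls higher in CT26, 6978 alone and 11 for the interaction. Both blocks kept the calls of all 191 called genes named in the text. Against a difference of 1 log2 unit 1444 genes were called (712 and 732), 1447 alone, 159 in the exchange lists and 6 pairs. Interaction calls were 3 with median centring, 2 with cyclic loess and 4 with a variance trend. A floor at the 60th percentile put 1348 genes under it in 1 line, in place of 626. Leaving out each array in turn gave 3342 to 4464 calls (1699 to 2293 higher in RAW and 1643 to 2171 in CT26), 3138 to 4485 alone, 0 to 2 for the interaction, 220 to 263 in the exchange lists and 12 to 15 pairs. Promoter shares then ran from 7.85% to 9.24% for PU.1 and from 17.3% to 18.7% for TEAD. Averaged probe sets moved these shares further, to 11.3% for PU.1 and 23.2% for TEAD. Of the called genes named, 0 changed sign and 44 lost the call in some alternative, 9 of them in one other than the test against 1 unit and the arrays left out. Co-culture arrays alone lost 8 of them, and averaged probe sets lost Pdgfb (adjusted p = 0.0558). Of 25 genes named that were not called, 13 were called in some alternative. The genes that changed sign were not called in the fit as reported. With median centring they were Il6st (0.01) and Tnfrsf1a (0.00), and with averaged probe sets Egfr (-0.11) and Tgfbr1 (0.01). With each array left out in turn, Csf2 ran from -0.09 to 0.20, Cxcl12 from -0.37 to 0.01, Ifnb1 from -0.09 to 0.13, Il6st from -0.21 to 0.09, Kdr from -0.01 to 0.35, Tnfrsf1a from -0.30 to 0.16 and Tnfrsf1b from -0.70 to 0.16. The causes were not tested. Without a block the smallest called difference was 0.334 log2 units, and genes under the floor have only a bound.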
